A study of Mus musculus with 13 samples.

Results

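The ribosomal proteins of the cytosol were examined in brain hemispheres of R6/2 and wild type mice, with and without a triple drug treatment. They were read by 49 probe sets of an Affymetrix MG-U74Av2 array, which belong to 35 genes, out of 12422 gene probe sets and 8251 genes in all. A probe set was taken when the array's annotation gave it 1 gene, with a symbol that begins with Rpl or Rps followed by a digit, begins with Rplp, or is Rpsa. Kinases of the Rps6k family and genes named as pseudogenes were left out. The large subunit (60S) had 22 probe sets of 17 genes and the small subunit (40S) had 27 probe sets of 18 genes. Another 39 probe sets are annotated to a ribosomal protein gene together with further genes and were not members.

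The 13 arrays fell into 4 groups by their titles, namely 3 R6/2 treated, 3 wild type treated, 4 R6/2 untreated and 3 wild type untreated arrays. R6/2 mice are a transgenic model of Huntington's disease in which the human huntingtin promoter drives exon 1 of the human gene, with an expanded CAG repeat, in all tissues beside the mouse's own copies. The treatment combined tacrine (a cholinesterase inhibitor, 2.7 mg/kg per day from 5 weeks), moclobemide (an inhibitor of monoamine oxidase A, 10 mg/kg per day) and creatine (1% w/v in wet mash). The drug text stands in the description of every sample, untreated ones included, so treatment was read from the titles. An age at harvest of 8 weeks is given for 1 wild type untreated sample, and sex is not stated. Each title carries a number of its own, but the labels do not say what it numbers, so p-values measure the spread between these samples, which may be technical.

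Each cytosolic ribosome is built from a small subunit, which reads the mRNA, and a large subunit, which joins amino acids. Their proteins are made in step with ribosomal RNA, and most of their mRNAs begin with a run of pyrimidines, the terminal oligopyrimidine (TOP) tract, through which the TOR kinase controls their translation. Neurons use ribosomes in the cell body and in dendrites, and mRNAs of ribosomal proteins are among the most abundant in brain.

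The genes' start sites are shown first because the TOP tract is the sequence by which this family is regulated together. RefSeq start sites (GRCm38.p6) were found for 28 of the 35 genes, with 37 entries. Windows from 30 bases before the start to 30 after it are printed for the genes that passed the test below (Rpsa, Rpl13a and Rpl10a). Those of Rpl7a, Rps10, Rps18 and Rps27 are printed as examples of a long pyrimidine run. Runs of 6 or more pyrimidines (C or T) are in capitals.
Rpsa, chr9:120127736-120127795, plus strand: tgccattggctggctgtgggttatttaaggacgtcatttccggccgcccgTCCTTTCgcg
Rpl13a, chr7:45128716-45128775, minus strand: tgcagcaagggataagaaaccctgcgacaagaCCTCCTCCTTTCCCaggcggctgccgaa
Rpl10a entry 1, chr17:28328441-28328500, plus strand: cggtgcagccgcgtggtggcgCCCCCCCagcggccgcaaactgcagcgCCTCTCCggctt
Rpl10a entry 2, chr17:28328535-28328594, plus strand: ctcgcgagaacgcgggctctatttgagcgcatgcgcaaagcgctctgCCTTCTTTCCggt
Rpl7a, chr2:26910777-26910836, plus strand: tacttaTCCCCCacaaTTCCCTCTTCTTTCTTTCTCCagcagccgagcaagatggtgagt
Rps10, chr17:27635215-27635274, minus strand: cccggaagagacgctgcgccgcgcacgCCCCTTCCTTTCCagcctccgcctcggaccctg
Rps18, chr17:33955636-33955695, minus strand: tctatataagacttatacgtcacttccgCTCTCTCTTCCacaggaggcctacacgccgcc
Rps27, chr3:90213619-90213678, minus strand: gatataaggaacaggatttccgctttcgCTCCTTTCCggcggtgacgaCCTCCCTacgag

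The longest run in these windows was 21 bases in Rpl7a, 14 in Rpl13a, 13 in Rps10, 11 in Rps18, 10 in the second entry of Rpl10a, 9 in Rps27 and 7 in Rpsa. The windows of Rpl7a, Rps10, Rps18 and Rps27 were picked for printing after the values were seen, and are not typical of the family. Elsewhere the longest run was, for example, 4 in Rpl41 and Rps4x and 5 in Rps28 and Rps3a1. The TOP tract stands at the beginning of an mRNA, whereas runs were sought anywhere in a window around an annotated start. Whether that start is used in brain was not tested, so a run or its lack does not show whether a gene has a TOP tract. A run of 8 or more on the coding strand stood in 15 of the 37 member windows (40.5%), against 22.9% of the 32851 windows in the whole table. The 6 letters CTTTCC stood in 8 member windows (21.6%), against 2.89% of all windows, and can lie inside such a run. In the 250 bases before the start, CGGAAG on either strand, the core letters bound by ETS factors, stood in 15 member entries (40.5%), against 13.6% of all entries. TATAAA on either strand stood in 1 member entry (2.70%), against 7.59% of all. Some genes have several entries that overlap, and a match describes letters and is not a mapped site. Of the 3 genes that passed the test, Rpl13a and the second entry of Rpl10a hold CTTTCC in a printed window and Rpsa does not. Rps10 and Rps27, which did not pass, hold it too. It stood in 7 of the 28 genes, and a link to the changes below was not tested.

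Signals are linear intensities, scaled by the submitters so that the trimmed mean of each array is about 100. Tests used log2 values, and probe sets whose mean log2 signal lay under the 40th percentile (a signal of 24.9) were set aside, which kept 7453 of the 12422. Of the 49 members, 30 passed this filter, from 25 genes, with 15 probe sets in each subunit. The members nearest to the limit were Rps24 (93121_at) and Rps4l (98148_at) below it, with geometric means of 24.2 and 23.7, and Rps4x (161654_r_at) and Rpl7l1 (98138_at) above it, with 28.5 and 31.3. The other 19 probe sets read 1.7 to 51.0 over all arrays. For 10 genes (Rpl32, Rpl35a, Rpl38, Rpl39, Rpl39l, Rps13, Rps14, Rps15, Rps20 and Rps27l) no probe set passed. A dim probe set does not show a low mRNA, since signals of different probe sets are not on 1 scale.

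The 5 highest mean signals belonged to Rpl41 (4017), Rps24 (97696_r_at, 2948), Rps28 (98085_f_at, 2471), Rps3a1 (1584) and Rps4x (100780_at, 1368). The 5 lowest belonged to Rps4x (162229_at, 2.85), Rps27l (3.32), Rpl39l (4.25), Rpl38 (99626_i_at, 4.75) and Rps15 (6.48). Rps4x, an X-linked small subunit gene, is thus in both groups, and its 5 probe sets had means between 2.85 and 1368. Rps24 had 24.8 and 2948 on its 2 probe sets, and Rpl7 had 7.92 and 1325. Across the 13 arrays the SD of log2 in the kept members ranged from 0.09 to 0.75 with a median of 0.21, against a median of 0.27 over all kept probe sets. The 5 widest were Rpl19 (161961_at, 17.6 to 95.8), Rps4x (161654_r_at, 14.0 to 43.6), Rps29 (98523_at, 29.6 to 68.8), Rpl10a (161327_f_at, 204.5 to 478.3) and Rpl22 (92856_at, 30 to 87.3).

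The array medians of gene probe sets ranged from 39.6 to 45.1. Untreated R6/2 arrays 3 and 2 stood apart, with scores of 45.7 and 25.4 on the first principal component (33.9% of the variance), against -14.7 to 4.09 on the other 11. The 66 control rows of untreated R6/2 arrays 2, 3 and 4 were all (tolerance 0.05) equal to 1.2 times those of another R6/2 array, namely treated 1, treated 3 and untreated 1 in that order, so for these arrays the controls give no separate measure of RNA quality. The 18S ribosomal RNA control read 59.1 to 92.9 in treated R6/2 and 70.9 to 128.1 in treated wild type arrays. It read 66.1 to 101.28 in untreated R6/2 against 28.2 to 44.5 in untreated wild type arrays. Among untreated R6/2 arrays only array 1, at 66.1, was not such a multiple, so the values of arrays 2, 3 and 4 are not separate readings. The 3 lowest 18S values were those of untreated wild type. These arrays enter the genotype comparison of untreated mice and the treatment comparison of wild type, and the part of the 18S control in those results was not tested. The lot number in the description of R6/2 treated array 1 repeats that of untreated R6/2 array 4, although their titles carry different numbers, and the titles were followed. The summed signal of 11 neuron markers was lower in R6/2 without overlap, at 10622 to 11385 in treated R6/2 against 11627 to 12284 in treated wild type arrays, and at 9996 to 11317 in untreated R6/2 against 12026 to 12432 in untreated wild type arrays. Oligodendrocyte markers were lower too. Over 7 genes they summed to 2608 to 3594 in treated R6/2 arrays against 3957 to 4665 in treated wild type arrays, and to 2381 to 3053 in untreated R6/2 arrays against 4040 to 4466 in untreated wild type arrays. In untreated mice 4 of these 7 genes fell, and so did 2 of 11 neuron, 2 of 7 astrocyte and 1 of 3 blood markers, where 6.41% of all kept probe sets fell. The median log2 change was -0.55 over the oligodendrocyte, -0.17 over the neuron and -1.02 over the blood markers. Over the astrocyte markers it was 0.18, opposite in sign to the 2 that fell. Astrocyte markers summed over 7 genes to 2867.2 to 3249.6 in treated R6/2 against 3438 to 3763.8 in treated wild type arrays, lower without overlap. In untreated arrays their sums overlapped, at 2877.3 to 3379.3 in R6/2 and 3358.5 to 3401.5 in wild type. Endothelial markers summed over 7 genes to 336.5 to 391.3 in treated R6/2 against 292.3 to 307.3 in treated wild type arrays, and to 328.4 to 368.6 in untreated R6/2 against 282 to 323.1 in untreated wild type arrays. They were higher in R6/2 without overlap, and none of the 7 passed. Blood markers summed over 3 genes to 904 to 1872 in untreated R6/2 against 1979 to 3525 in untreated wild type arrays. In treated arrays their sums overlapped, at 927.5 to 2146.3 in R6/2 and 995.2 to 1650 in wild type. Microglial markers summed over 7 genes to 1236 to 1399 in untreated R6/2 and 1056 to 1321 in untreated wild type arrays, which overlapped. In treated arrays they summed to 1235.9 to 1307.9 in R6/2 against 1106.3 to 1181.9 in wild type, without overlap. In untreated mice 1 of the 7, Ctss, rose (5.49% of all kept probe sets rose), while the median log2 change of the 7 was -0.16. No marker in these lists was at 0, though some, Cnp and Aif1 among them, were too dim to keep. In these bulk samples fewer cells of a type and less RNA per cell cannot be told apart, and the part of cell composition in the results below was not tested.

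In untreated mice the ribosomal protein messages as a group differed little between R6/2 and wild type, and 3 single probe sets passed the test. Rpsa, which encodes a small subunit protein also known as the laminin receptor, fell in R6/2. Rpl13a, a large subunit protein, and 1 of the 2 probe sets of Rpl10a, a protein of the stalk at the ribosome's exit site, rose. These were 3 of 30 (10%), against 11.9% of all kept probe sets at an adjusted p under 0.05 (limma, Benjamini-Hochberg over all kept probe sets). By direction, 2 rose (6.67%, against 5.49% of all) and 1 fell (3.33%, against 6.41% of all). The share among the members was thus close to that among all probe sets.

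Rpsa read 243.6, 278.4, 217.2 and 258.7 in untreated R6/2 arrays, against 428.5, 433.5 and 403.2 in untreated wild type arrays. Every R6/2 array lay below every wild type array. The log2 change was -0.76 ± 0.11 (SE, adjusted p = 0.00142), a mean of 249.5 ± 25.8 (SD, n = 4) in R6/2 against 421.7 ± 16.2 (SD, n = 3) in wild type. Its change passed the test under each of the 20 alternative settings, between -0.82 and -0.70, including that without untreated R6/2 arrays 2 and 3 together.

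Rpl13a read 166.8, 194.9, 170.7 and 172.8 in untreated R6/2 arrays and 116.1, 135.9 and 105.6 in untreated wild type arrays. The groups did not overlap, with a log2 change of 0.57 ± 0.13 (SE, adjusted p = 0.0163). The probe set 161327_f_at of Rpl10a read 387.4, 414.0, 478.3 and 338.5 in untreated R6/2 arrays, against 204.5, 255.0 and 219.6 in untreated wild type arrays. Its groups did not overlap either, and the log2 change was 0.83 ± 0.18 (SE, adjusted p = 0.0145). The other probe set of the gene, 100711_at, read 485.2, 492.6, 374.7 and 466.7 in untreated R6/2 arrays, against 459.3, 543.2 and 512.2 in untreated wild type arrays. Here the groups overlapped, and the change was -0.16 ± 0.12 on the log2 scale (SE, adjusted p = 0.401). The rise in Rpl10a therefore rests on 1 of 2 probe sets, and the suffix _f_at marks a probe set that the array's maker flagged as shared within a gene family. Rpsa and Rpl13a each had only 1 member probe set, so no second reading of these genes could be compared. Whether a probe set also reads paralogs or pseudogenes was not tested.

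Both rises depended on few arrays. Without wild type untreated array 1 the adjusted p was 0.0526 for each of the 2 probe sets, and without wild type untreated array 3 it was 0.0591 for Rpl10a and 0.0855 for Rpl13a. Without untreated R6/2 arrays 2 and 3 together the log2 changes were 0.68 for Rpl10a (adjusted p = 0.104) and 0.52 for Rpl13a (adjusted p = 0.0855). In each of these 3 cases Rpsa was the 1 member that passed.

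**Figure D1:**
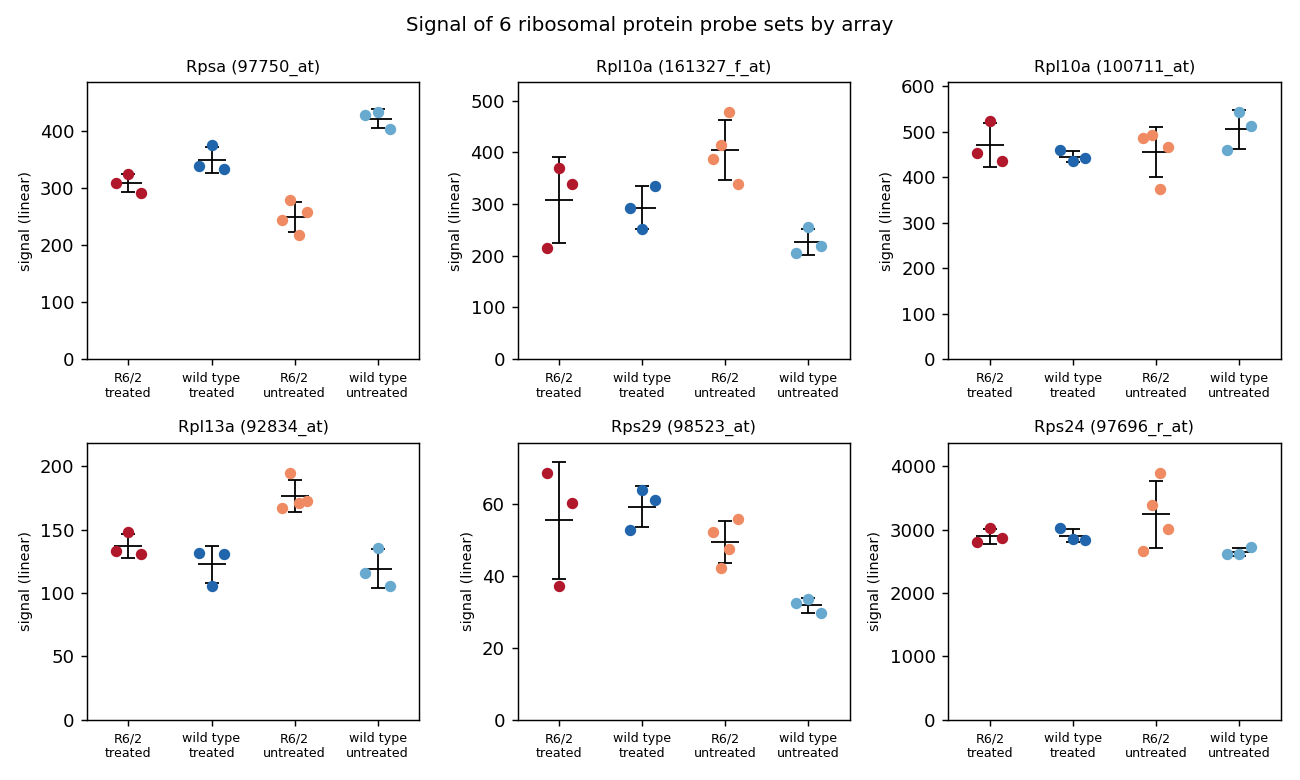
Linear signal on each array (y axis, from 0) of Rpsa, both kept probe sets of Rpl10a, Rpl13a, Rps29 and Rps24, for R6/2 treated, wild type treated, R6/2 untreated and wild type untreated mice; points are arrays, and bars are the mean and SD (n = 3, 3, 4 and 3). Rpsa is lowest and Rpl13a highest in untreated R6/2 arrays, while the 100711_at probe set of Rpl10a overlaps between the genotypes.

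Next in order came 2 small subunit members that did not pass. Rps29, a small zinc-binding protein, read 52.3, 42.3, 47.5 and 56.0 in untreated R6/2 arrays, against 32.6, 33.6 and 29.6 in untreated wild type arrays, with no overlap (log2 change 0.63 ± 0.20 SE, adjusted p = 0.0563). It passed with array weights (adjusted p = 0.0359) and without R6/2 treated array 2 (adjusted p = 0.0266). Its other probe set was dim. Rps24, mutated in some human patients with Diamond-Blackfan anaemia, read 2667.2, 3383.6, 3897.2 and 3015.9 on 97696_r_at in untreated R6/2 arrays, against 2613.9, 2608.4 and 2724.7 in untreated wild type arrays. The groups overlapped through untreated R6/2 array 1 (log2 change 0.28 ± 0.11 SE, adjusted p = 0.118). Its 2 highest values were those of untreated R6/2 arrays 3 and 2, and without array 1 it passed with an adjusted p of 0.0274.

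Over the 30 members, groups did not overlap in 6 (20%), against 26.2% of all kept probe sets. Of these, 4 were higher (13.3%, against 13.9% of all) and 2 lower in R6/2 (6.67%, against 12.3% of all). The other 2 beside those described were Rps4x (100780_at, higher) and Rpl37a (lower). Of the 30 members 18 had a change above 0 (60%, against 54.3% of all kept probe sets). The median log2 change of the members was 0.08, against 0.04 over all kept probe sets. It was 0.08 in the large and 0.09 in the small subunit. Without untreated R6/2 arrays 2 and 3 the median of the members was 0.02, below the 0.05 over all kept probe sets.

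Several members had small changes, and their groups overlapped. Rps18 had a log2 change of -0.03 ± 0.11 (SE), Rps10 of -0.01 ± 0.12 and Rps7 of -0.01 ± 0.10. Rpl8, next to the catalytic centre, had 0.02 ± 0.15, and Rplp0, the base of the acidic stalk and a common reference gene, had -0.11 ± 0.12. Rplp0 read 874.0, 1032.8, 804.4 and 990.8 in untreated R6/2 arrays, against 919.7, 1045.4 and 1020.7 in untreated wild type arrays. Rps19, the gene most often mutated in human Diamond-Blackfan anaemia, had -0.06 ± 0.16.

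The genes with 2 or more kept probe sets did not always read alike. The difference in log2 change between probe sets was 0.99 in Rpl10a, 0.52 in Rpl22, 0.31 in Rps4x, 0.15 in Rps28 and 0.05 in Rpl19. For Rpl22, which binds RNA outside the ribosome too, 92856_at had 0.24 ± 0.25 and 92857_at had -0.28 ± 0.17 (SE), and neither passed. Of the relatives of ribosomal proteins, Rpl7l1, which acts in making the large subunit, had 0.36 ± 0.21 (adjusted p = 0.264). Rps4l, a transcribed pseudogene by its RefSeq type, had -0.18 ± 0.23 on 98149_s_at (adjusted p = 0.619). Rps27l, a p53 target in human cells, and Rpl39l, a male germ line paralog, were dim on all arrays, with signals of 1.8 to 6.2 and 2.4 to 9.4.

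**Figure D2:**
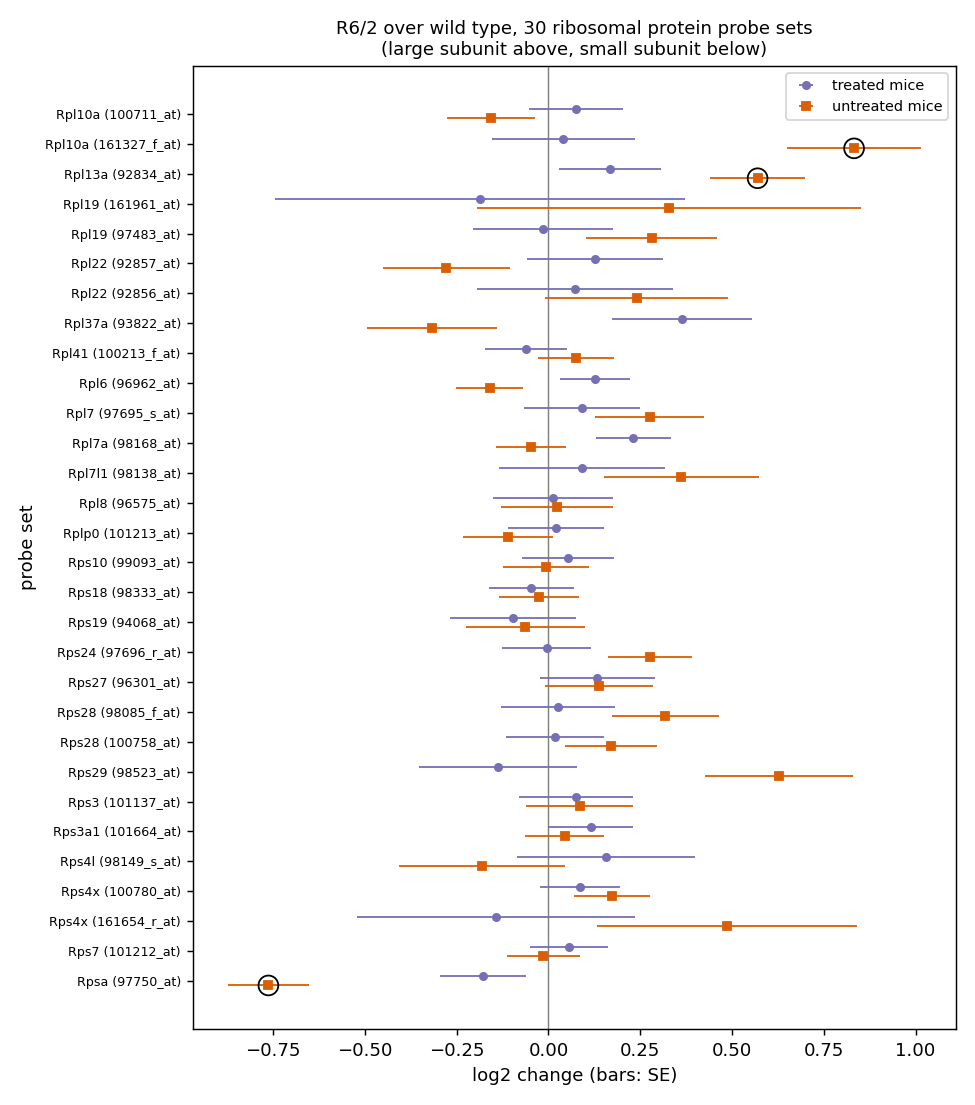
Log2 change of R6/2 over wild type (x axis, bars are SE) for the 30 kept probe sets (y axis), large subunit above and small subunit below, in treated mice (circles) and untreated mice (squares). The 3 ringed points passed the test, all in untreated mice, and most others lie within 0.3 of 0.

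In treated mice no member passed (limma), against 0.792% of all kept probe sets, and 1 member had an unadjusted p under 0.05 (3.33%, against 9.19% of all). That was Rpl7a, a large subunit protein, which read 713.8, 746.0 and 651.8 in treated R6/2 arrays, against 624.4, 558.4 and 615.6 in treated wild type arrays (log2 change 0.23 ± 0.10 SE, adjusted p = 0.512). Groups did not overlap in 3 members (10%), Rpl7a, Rpl6 and Rpsa, against 16.8% of all kept probe sets. Rpl7a and Rpl6 were higher in R6/2 (6.67%, against 8.63% of all) and Rpsa was lower (3.33%, against 8.17% of all). Rpsa read 308.8, 324.1 and 292.1 in treated R6/2 arrays, against 338.3, 375.9 and 333.0 in treated wild type arrays. R6/2 was again the lower group, by -0.18 ± 0.12 on the log2 scale (SE, adjusted p = 0.763).

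Rpl13a read 133.3, 148.2 and 130.4 in treated R6/2 arrays, against 131.7, 105.8 and 130.7 in treated wild type arrays, and the groups overlapped (log2 change 0.17 ± 0.14 SE, adjusted p = 0.839). The 161327_f_at probe set of Rpl10a read 214.2, 370.8 and 338.8 in treated R6/2 arrays, against 293.0, 251.7 and 335.4 in treated wild type arrays (0.04 ± 0.19). Rpl37a, a zinc-binding large subunit protein, read 982.2, 942.9 and 955.9 in treated R6/2 arrays, against 723.2, 999.5 and 573.4 in treated wild type arrays (0.36 ± 0.19, adjusted p = 0.622). The spread lay in wild type, where array 2 was above all R6/2 arrays. The median change of the 30 members was 0.06, against 0.03 over all kept probe sets, and 21 were above 0 (70%, against 56.1% of all).

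Averaged over treatment, Rpsa fell (-0.47 ± 0.08 SE, adjusted p = 0.00298) and Rpl13a rose (0.37 ± 0.09 SE, adjusted p = 0.0322) in R6/2. These 2 were 6.67% of the 30 members, against 6.61% of all kept probe sets, of which 2.58% rose and 4.04% fell. Rpl13a lost the call without any 1 of wild type untreated array 1 or 3, wild type treated array 2, R6/2 untreated array 2 or R6/2 treated array 1, 2 or 3, with adjusted p between 0.0566 and 0.0948. Rpsa passed under each of its 19 alternatives. Rpl10a (161327_f_at) had 0.44 ± 0.13 (adjusted p = 0.0666), Rps4x (100780_at) 0.13 ± 0.08 (adjusted p = 0.316) and Rpl7 (97695_s_at) 0.18 ± 0.11 (adjusted p = 0.328).

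Treatment moved no member past the threshold in either genotype. In R6/2 mice 0 of 30 members and 0% of all kept probe sets passed (limma), and an unadjusted p under 0.05 was reached by 4 members (13.3%), against 16.9% of all kept probe sets. Rpsa read 308.8, 324.1 and 292.1 in treated and 243.6, 278.4, 217.2 and 258.7 in untreated R6/2 arrays, with every treated array higher (log2 change 0.31 ± 0.11 SE, adjusted p = 0.251). Rpl13a read 133.3, 148.2 and 130.4 in treated and 166.8, 194.9, 170.7 and 172.8 in untreated R6/2 arrays, with every treated array lower (-0.36 ± 0.13 SE, adjusted p = 0.251). These were the 2 members (6.67%) whose groups did not overlap, against 10.6% of all kept probe sets, of which 4.94% were higher and 5.65% lower with treatment. The untreated R6/2 arrays enter both this comparison and that of the genotypes in untreated mice, so opposite signs in the 2 are not independent.

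The other members with the smallest p in R6/2 were Rpl10a (161327_f_at, -0.42 ± 0.18, adjusted p = 0.272), Rpl7 (97695_s_at, -0.33 ± 0.15, adjusted p = 0.281) and Rps28 (100758_at, -0.24 ± 0.12, adjusted p = 0.329). Rpl7 read 1097.0, 1366.0 and 1219.4 in treated and 1225.2, 1662.4, 2045.4 and 1348.3 in untreated R6/2 arrays. The highest value was that of untreated R6/2 array 3, and the groups overlapped. Of the 30 members 19 had a change below 0, against 3547 of the 7453 kept probe sets. The median change of the members was -0.05, against 0.02 over all kept probe sets. Without untreated R6/2 arrays 2 and 3 it was -0.0016, above the -0.01 over all kept probe sets.

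In wild type mice 0 of 30 members and 0% of all kept probe sets passed (limma), and an unadjusted p under 0.05 was reached by 4 members (13.3%), against 10.3% of all. Rps29 (98523_at) read 52.9, 63.9 and 61.2 in treated and 32.6, 33.6 and 29.6 in untreated wild type arrays. Every treated array was higher, and the log2 change was 0.89 ± 0.22 (SE, adjusted p = 0.254). It passed in the fit with array weights (adjusted p = 0.0255). The same untreated wild type arrays were lower than the untreated R6/2 arrays above, so the 2 differences share them, and these 3 arrays also had the lowest 18S control.

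The next 4 by p were lower in treated wild type mice, and 3 of them (all but Rpl6) had an unadjusted p under 0.05. Rpl7a read 624.4, 558.4 and 615.6 in treated and 686.1, 749.9 and 732.6 in untreated wild type arrays, with no overlap (-0.27 ± 0.10 SE, adjusted p = 0.395). Rpsa read 338.3, 375.9 and 333.0 in treated and 428.5, 433.5 and 403.2 in untreated wild type arrays, also with no overlap (-0.27 ± 0.12 SE, adjusted p = 0.447). Rpl6 read 1008.3, 959.1 and 994.6 in treated and 1050.9, 1182.2 and 1182.1 in untreated wild type arrays (-0.20 ± 0.10 SE, adjusted p = 0.487). Its groups did not overlap, whereas those of Rpl37a did (-0.45 ± 0.19 SE, adjusted p = 0.442).

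Groups did not overlap in 10 of 30 members (33.3%), against 21.8% of all kept probe sets. Of these, 7 were lower with treatment (23.3%, against 10.4% of all), from Rpl10a (100711_at), Rpl22 (92857_at), Rpl6, Rpl7, Rpl7a, Rps3a1 and Rpsa. The other 3 were higher (10%, against 11.4% of all), from Rpl22 (92856_at), Rps24 and Rps29. The 2 probe sets of Rpl22 were thus in opposite groups. The median change of the 30 was -0.06, against 0.01 over all kept probe sets, and it was -0.13 in the large and -0.05 in the small subunit.

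**Figure D3:**
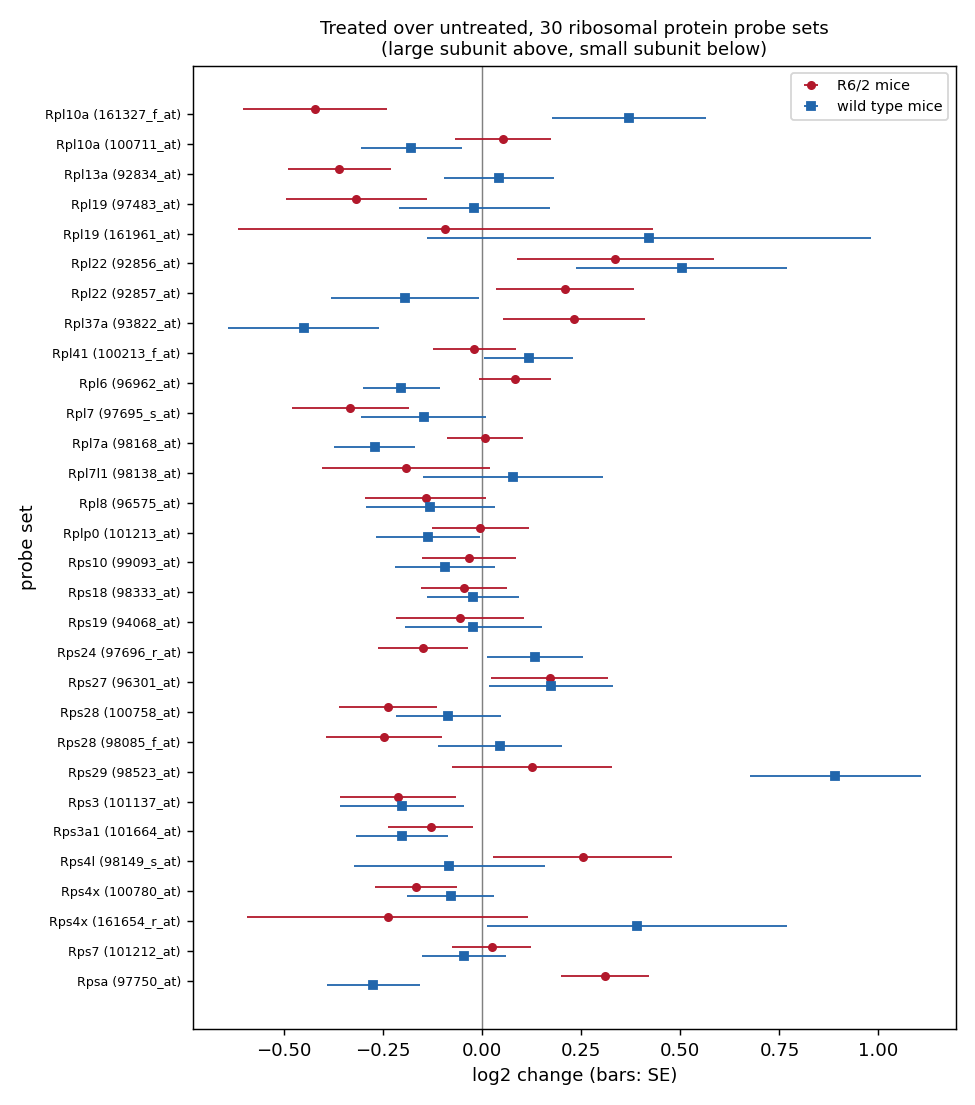
Log2 change of treated over untreated mice (x axis, bars are SE) for the 30 kept probe sets (y axis), large subunit above and small subunit below, in R6/2 mice (circles) and wild type mice (squares). No probe set passed the test in either genotype, and Rps29 in wild type, at 0.89, lies farthest from 0.

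The treatment effects of the genotypes were also compared with each other. No member passed this interaction test (limma), nor did any kept probe set (0%), and 5 members (16.7%) had an unadjusted p under 0.05, against 13.5% of all kept probe sets. Treatment in R6/2 minus treatment in wild type gave 0.58 ± 0.16 for Rpsa (SE, adjusted p = 0.305), -0.79 ± 0.27 for Rpl10a (161327_f_at, adjusted p = 0.315), 0.68 ± 0.26 for Rpl37a (adjusted p = 0.316), -0.77 ± 0.30 for Rps29 (adjusted p = 0.318) and 0.29 ± 0.13 for Rpl6 (adjusted p = 0.363). The differences between the genotypes in their response to treatment were therefore not past the threshold for any member.

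Averaged over genotype, treatment gave 0 members and 0% of all kept probe sets (limma), with 3 members at an unadjusted p under 0.05 (10%), against 12.6% of all. Rps29 had 0.51 ± 0.15 (adjusted p = 0.261), Rpl22 (92856_at) 0.42 ± 0.18 (adjusted p = 0.367), Rpl7 -0.24 ± 0.11 (adjusted p = 0.383), Rps3a1 -0.17 ± 0.08 (adjusted p = 0.406) and Rps3 -0.21 ± 0.11 (adjusted p = 0.433). Over the 30 members 21 changes were below 0, against 3495 of the 7453 kept probe sets. The median was -0.06, against 0.01 over all kept probe sets. Without untreated R6/2 arrays 2 and 3 these medians were -0.04 and -0.0014. Among the 17 members with a mean signal of 500 or more 16 were below 0, against 316 of the 589 other probe sets as bright. The median was -0.11 in these members, against -0.01 over those 589. Rpl41 was the exception, at 0.05 ± 0.08. Each single change in these 17 was small and did not pass, and the cut at 500 was chosen with earlier results known. Of the 13 kept members with a mean signal under 500, 8 were above 0, with a median of 0.02.

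Across arrays the bright members were more alike than the 30 as a whole. The median Pearson r over 136 pairs of the 17 bright members was 0.35 (13 arrays), against 0.06 over the 435 pairs of all 30. All pairs share the same arrays and their scaling. No such r was taken over other bright probe sets, so whether 0.35 is particular to ribosomal proteins was not tested. Rps3, at the entry of the mRNA channel, followed the median profile of the members most closely (r = 0.92), then Rps28 (100758_at, 0.84), Rps3a1 (0.82), Rpl19 (97483_at, 0.80) and Rpl7 (97695_s_at, 0.78). The most opposed were Rpl22 (92856_at, -0.43), Rps29 (-0.38) and Rpsa (-0.34). A member is itself part of that median, and the 4 groups are part of the profile.

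The array with the highest member median was untreated R6/2 array 2, at 0.18 above the mean of the arrays on the log2 scale, followed by untreated R6/2 array 3, at 0.10. The lowest was wild type treated array 2, at -0.10. Array 3 of the untreated R6/2 group held the highest of the 13 values for 10 of 30 members (33.3%), against 21.0% of all kept probe sets. Among the 17 bright members it held 8 (47.1%), against 39.7% of the 589 other bright probe sets. On array 2 of that group the 589 other bright probe sets had a median of 0.04, against 0.18 in the bright members. Rps3 read 957.9, 1372.4, 1407.9 and 1115.3 in untreated R6/2 arrays and 1032.5, 1170.4 and 1192.5 in untreated wild type arrays, so the R6/2 arrays lay on both sides of wild type.

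**Figure D4:**
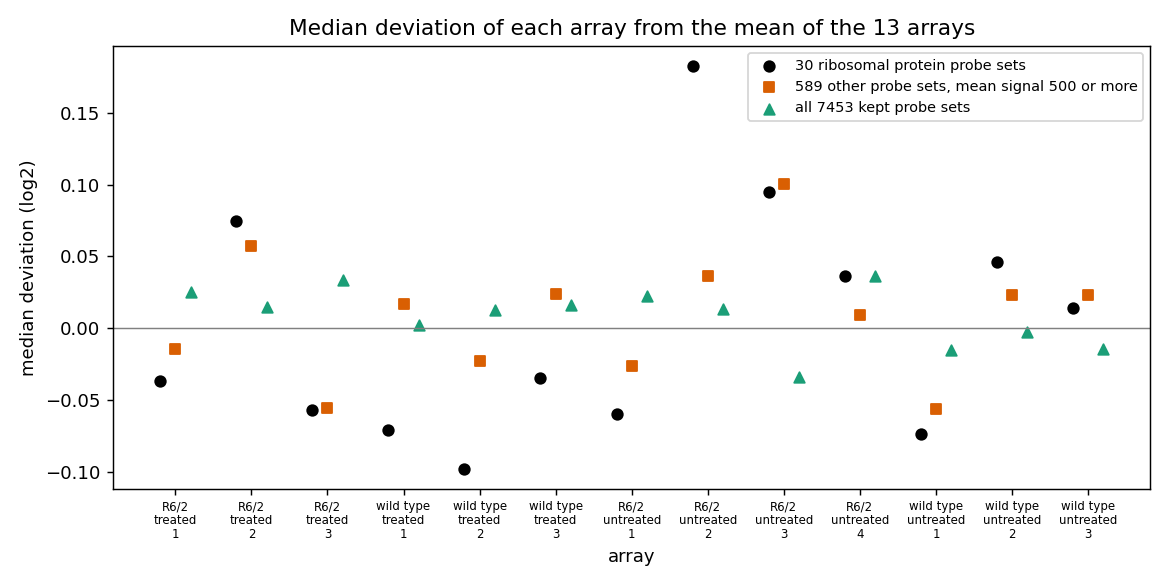
Median deviation of each array from the mean of the 13 arrays (y axis, log2) for the 30 kept ribosomal protein probe sets (circles), the 589 other probe sets with a mean signal of 500 or more (squares) and all 7453 kept probe sets (triangles). Untreated R6/2 array 2 is highest for the ribosomal proteins, at 0.18, while all kept probe sets stay within 0.04 of 0 on every array.

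Other parts of the translation machinery are read against the 11.9% of all kept probe sets that passed between genotypes in untreated mice (5.49% higher, 6.41% lower). In untreated mice 1 of 32 measured initiation factors fell in R6/2, Eif6, which keeps the subunits apart during ribosome assembly. Eif6 averaged 86.5 ± 7.39 in untreated R6/2 arrays (SD, n = 4), against 128.7 ± 9.83 in untreated wild type arrays (SD, n = 3). Its log2 change was -0.57 ± 0.12 (SE, adjusted p = 0.0116). Of 4 measured elongation factors 1 fell, Eef1a2, the form of neurons and muscle (-0.58 ± 0.18 SE, adjusted p = 0.0488). Eef1a2 averaged 1831 ± 500 in untreated R6/2 arrays (SD, n = 4), against 2657 ± 178 in untreated wild type arrays (SD, n = 3). It ranged from 1372.9 to 2345.8 in the former and from 2545.7 to 2862.2 in the latter. The alternative settings were read for ribosomal protein members only. Whether calls in these other lists hold without untreated R6/2 arrays 2 and 3 was not tested. No member of the 14 measured other TOP mRNAs passed, and their median change was 0.11. The median over the 32 initiation factors was 0.07, against 0.04 over all kept probe sets.

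Of 41 measured genes of ribosome biogenesis, 2 rose and 2 fell in untreated R6/2. Nop16, a nucleolar protein, had 0.63 ± 0.17 (SE, adjusted p = 0.0334), and Ltv1, an assembly factor of the small subunit, had 0.77 ± 0.22 (adjusted p = 0.0399). Those that fell were Eif6, which is in both lists, and Nhp2, a protein of H/ACA particles (-0.57 ± 0.14, adjusted p = 0.0242). Averaged over treatment, Fbl, the methyltransferase of box C/D particles, rose (0.46 ± 0.10, adjusted p = 0.0143) and Nhp2 fell (-0.44 ± 0.11, adjusted p = 0.0216). Of 11 measured genes of the TOR pathway 2 fell in untreated R6/2, Akt2, an insulin-signalling kinase (-1.19 ± 0.24, adjusted p = 0.0101), and Ddit4, a stress-induced TOR inhibitor (-0.61, adjusted p = 0.0174). None of 8 p53 and ribosomal stress genes passed.

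Of 56 measured mitochondrial ribosomal proteins, which belong to a separate ribosome, 1 rose and 1 fell in untreated R6/2. Mrpl17 had 0.84 ± 0.18 (SE, adjusted p = 0.0139) and Mrpl4 had -0.51 ± 0.15 (adjusted p = 0.0414). Mrpl17 averaged 57.7 ± 6.99 in untreated R6/2 arrays (SD, n = 4), against 32.3 ± 4.93 in untreated wild type arrays (SD, n = 3). The median change was 0.10 in these 56, against 0.08 in the cytosolic members. In treated mice, and for treatment in either genotype, no gene of these lists passed.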

How the data were processed

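Total RNA of whole brain hemispheres was read on 13 single-channel arrays. The authors deposited 1 table of linear intensity values, scaled so that each array's mean after trimming 2% at each end is 99.983 to 100.062, as found in the values. The software behind it is not given in the sources used here. Of 12488 probe sets, 66 controls were removed. Values under 3.1, the 10th percentile, were set to 3.1 and log2 was taken. The 7453 probe sets whose mean log2 was at or above the 40th percentile were fitted with limma 3.58.1 (R 4.3.3) as 4 group means with a variance trend, with Benjamini-Hochberg adjustment over all 7453 and a threshold of 0.05. Arrays give no read depth, and their number limits the precision. Genes came from the platform annotation.

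The members, lists and tests were chosen with earlier results of these data known. Named were, per comparison, members past the threshold or, where fewer than 5 passed, the 5 with the smallest p. The rule added the 5 highest, lowest and most variable members, paralogs, genes with discordant probe sets and, from other lists, at most 4 genes each. Rplp0, Rpl8, Rps7, Rps10, Rps18 and Rps19 were added after their values were seen, as were the printed windows of Rpl7a, Rps10, Rps18 and Rps27. Values in other lists are of 1 probe set per gene. The fit was tested on simulated data of 7453 probe sets, with 100 changed by 0.5 and 100 by 1 (log2). For genotype in untreated mice the fit recovered 12% of changes of 0.5 and 55% of changes of 1. The shares were 9% and 65% for genotype in treated mice, 21% and 79% for treatment in R6/2, and 5% and 69% for treatment in wild type. There were at most 5 false calls. The simulated noise was independent and of equal spread on all arrays, whereas untreated R6/2 arrays 2 and 3 stood apart in the real data. The number of real changes is not known either, so these shares may not hold for the real data.

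Alternatives were a floor at the 5th percentile, quantile normalization, centring on medians, no filter, array weights, only the groups compared, each array left out, and untreated R6/2 arrays 2 and 3 left out together.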

Additional observations from a re-analysis of the deposited data

Results flagged for a closer look

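One member had an array far from the rest of its group. Rpl7l1 (98138_at) read 25.0 on untreated R6/2 array 4, against 40.6, 39.4 and 41.0 on the other 3 untreated R6/2 arrays. The gap to the nearest value was 0.9 of the group's range, above Dixon's 95% critical value for 4 arrays. The group of 4 was tested in 30 members, and chance alone marks about 1 in 20 groups.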

How the results depend on the processing

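No named change of a single probe set changed direction under an alternative, but medians over the members did. In untreated mice the number of members that passed between genotypes was 3. It ranged from 1 to 4 when single arrays were left out, was 1 without wild type untreated array 1 or 3, and was 1 without untreated R6/2 arrays 2 and 3 together. For the genotypes averaged over treatment the number was 2. It ranged from 1 to 3 over single arrays left out, was 1 with arrays centred on their medians, and was 1 without untreated R6/2 arrays 2 and 3 together. Treatment in wild type gave 1 member, Rps29, with array weights, against 0. In the other comparisons the number was 0 under each alternative, single arrays left out included. Rpl13a between genotypes in untreated mice had an adjusted p of 0.0542 when only the groups compared were fitted. Without a filter, which adds the 19 dim probe sets, the median change over 49 members was 0.17 for genotype in untreated mice and 0.08 for treatment in wild type, against 0.06 and 0.03 over all probe sets, and the median for treatment in wild type had been -0.06 with the filter. The median for treatment in R6/2 (-0.05) was 0.0055 without untreated R6/2 array 2, and that of the interaction (-0.03) was 0.0053 without wild type untreated array 1 and 0.0005 without wild type treated array 3. The causes were not tested. Over all pairs of a named change and an alternative, the side of the threshold was kept in 662, lost in 16 and gained in 7. No paired analysis was possible because the labels give no replicate number shared between groups. With 3 or 4 arrays a group, changes of 0.5 on the log2 scale were seldom recovered from simulated data, so a member that did not pass may still differ by that much.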

Other observations

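Of the 39 probe sets annotated to a ribosomal protein gene together with further genes, 35 passed the filter. In untreated mice 2 of these rose and 1 fell in R6/2 (limma, adjusted p under 0.05), where 5.49% of all kept probe sets rose and 6.41% fell. The median log2 change was 0.12 over the 35, against 0.08 in the 30 members and 0.04 over all kept probe sets. For treatment in R6/2 mice their median was -0.14, against 0.02 over all kept probe sets. Of the 35, 26 were below 0 (against 3547 of the 7453 kept probe sets), and none passed. On untreated R6/2 arrays 2 and 3, which stood apart, the 35 had median deviations of 0.20 and 0.12 (log2, from the mean of the arrays). On untreated R6/2 arrays 1 and 4 these deviations were -0.06 and 0.07. The 35 probe sets are not named, since each is shared between genes.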
